A study of Homo sapiens with 8 samples.

Results

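10 genes of polyamine metabolism were followed in MDA-MB-231 cells with and without an edited DOT1L gene: ODC1, AMD1, SRM and SMS, which carry out synthesis, SAT1, SMOX and PAOX, which carry out breakdown, and OAZ1, OAZ2 and AZIN1, which regulate ornithine decarboxylase and uptake. They were picked by their symbols as members of the pathway, and each of the 10 symbols matched 1 of 60646 gene rows of the deposited count table. All 10 passed the filter on low counts and were tested. In the knockout samples SMOX, SAT1 and OAZ2 rose, AMD1 and PAOX fell, and the other 5 did not pass the test. This main test did not use the replicate numbers. With the replicate number as a block in the fit, ODC1 and OAZ1 also passed, both lower (adjusted p = 0.0489 and 0.0345). Of all 19877 tested genes 47.6% were called, so 5 of 10 is near the share over all genes. Among the 5 that passed, 4 were under 1.5-fold, and 0 of 10 reached 2-fold. The share of all genes within these fold limits was not counted. The median size of the log2 change regardless of direction was 0.14 over the members and 0.24 over all tested genes.

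Putrescine, spermidine and spermine are small cations that bind nucleic acids and are needed for translation and growth. ODC1 makes putrescine from ornithine, and SRM and SMS then add aminopropyl groups, taken from the S-adenosylmethionine that AMD1 has decarboxylated, to give spermidine and spermine. In breakdown, SAT1 acetylates spermidine and spermine for export or for oxidation by PAOX, whereas SMOX oxidises spermine directly. Antizymes such as OAZ1 and OAZ2 bind ODC1 and send it to the proteasome, their own translation needs a polyamine-driven frameshift, and AZIN1 is an ODC1-like protein without activity that titrates antizyme. Much of this control acts on translation and protein stability, which counts of RNA do not measure.

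MDA-MB-231 is an established line of triple-negative breast cancer, and DOT1L is a histone methyltransferase that acts on the bodies of transcribed genes. The data were RNA counts from 4 wild-type and 4 knockout samples, both grown in DMEM with 5% FBS, plated at about 50% confluency and harvested on the following day. The labels write the knockout genotype as DOT1L/+ and place the guide RNA in the gene's first exon. They do not say how many edited clones there were or whether samples of a group were separate cultures, so a p-value here reflects sample-to-sample spread that could be technical in origin, and clone and genotype cannot be told apart.

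Library totals were 40103408 to 50031412 counts, and 1 count stood for 0.0198 to 0.025 CPM (counts-per-million, scaled with TMM factors). DOT1L itself, on chromosome 19 at 2164149 to 2232578 (GRCh38, + strand), was at 115, 101, 103 and 118 CPM in wild-type replicates 1, 2, 3 and 5 and at 85.2, 78.0, 83.1 and 92.3 CPM in the knockout replicates of the same numbers. The groups did not overlap and the log2 change (knockout minus wild-type, as throughout) was -0.37 (SE 0.06, adjusted p = 2.8e-05). Relative to its chromosomal neighbours, a scale described below, whose median was -0.13, the change of DOT1L was -0.23 (adjusted p = 0.00290). VIM, CD44, AXL and EGFR, markers of this mesenchymal-like line, were at 466 to 4051 CPM in every library and ESR1, PGR, CDH1 and EPCAM at 0 to 7.76 CPM. The 5 markers of other cell types (PTPRC, CD3E, PECAM1, CDH5 and ALB) summed to 0.887 to 1.88 CPM in wild-type and 1.15 to 1.63 CPM in knockout libraries, and none exceeded 0.951 CPM.

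A pair of promoter sequences is shown because ODC1 and SRM are textbook targets of MYC, whose binding motif is the E-box CACGTG. Windows of 300 bases, from 250 before to 50 after an annotated start, came from RefSeq on GRCh38.p14, and 7 of the 10 genes had at least 1 window. Capitals mark CACGTG, which reads the same on both strands. The ODC1 window is at chr2:10447963-10448262 and the SRM window at chr1:11059969-11060268, both on the - strand and written 5′ to 3′.
ODC1: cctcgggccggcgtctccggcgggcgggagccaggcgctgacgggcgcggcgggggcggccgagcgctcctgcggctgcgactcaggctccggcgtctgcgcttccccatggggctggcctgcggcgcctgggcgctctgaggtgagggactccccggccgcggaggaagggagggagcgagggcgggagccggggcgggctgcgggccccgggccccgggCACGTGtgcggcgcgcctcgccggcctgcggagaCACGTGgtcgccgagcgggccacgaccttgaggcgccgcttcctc
SRM: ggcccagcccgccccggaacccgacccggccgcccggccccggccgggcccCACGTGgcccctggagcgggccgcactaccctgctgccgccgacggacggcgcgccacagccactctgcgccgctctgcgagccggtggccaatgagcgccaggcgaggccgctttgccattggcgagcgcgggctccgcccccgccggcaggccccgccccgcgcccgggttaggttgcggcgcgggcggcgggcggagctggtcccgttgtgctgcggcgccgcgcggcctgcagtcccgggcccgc
The 2 matches of ODC1 begin at -29 and 6 relative to that start, and the match of SRM begins at -199. ODC1 has another RefSeq start 315 bases upstream of the one shown, and its window has 0 matches. Both matches of ODC1 therefore lie downstream of that other start. The windows of SMS, AMD1, SAT1, OAZ1 and OAZ2 also had 0. Among all 35116 windows, 2548 (7.26%) held at least 1 match and 233 (0.664%) held at least 2. By gene, 2 of the 7 members with a window held a match (28.57%), against 8.77% of all genes. Neither gene with a match passed the main test, in which 47.6% of all tested genes were called, although ODC1 passed in 4 of 17 alternatives. A match here is a description of letters only.

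The members' share of all counts was 0.171% to 0.186% in wild-type and 0.175% to 0.185% in knockout libraries, so the ranges overlapped. Counts for a single member in a library ran from 26 (PAOX) to 23024 (ODC1). As counts per kilobase of annotated exon in CPM (RPKM), the wild-type levels were in the order SMS (144 ± 6.20, SD, n = 4), ODC1 (137 ± 17.8), SRM (79.1 ± 9.04), OAZ1 (78.7 ± 3.87), AZIN1 (59.8 ± 3.28), AMD1 (21.7 ± 1.17), SAT1 (19.97 ± 2.38), OAZ2 (7.43 ± 0.153), SMOX (3.48 ± 0.570) and PAOX (0.500 ± 0.116). SMS and ODC1, SRM and OAZ1, and AMD1 and SAT1 were neighbours in this order that differed by less than the larger SD of the pair. In knockout samples SAT1 (23.7 ± 1.87 RPKM) stood above AMD1 (18.3 ± 0.395 RPKM), the only change in the order. The lengths join every annotated exon of a gene, whether used in these cells or not, so levels on this scale depend on the annotation.

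**Figure D1:**
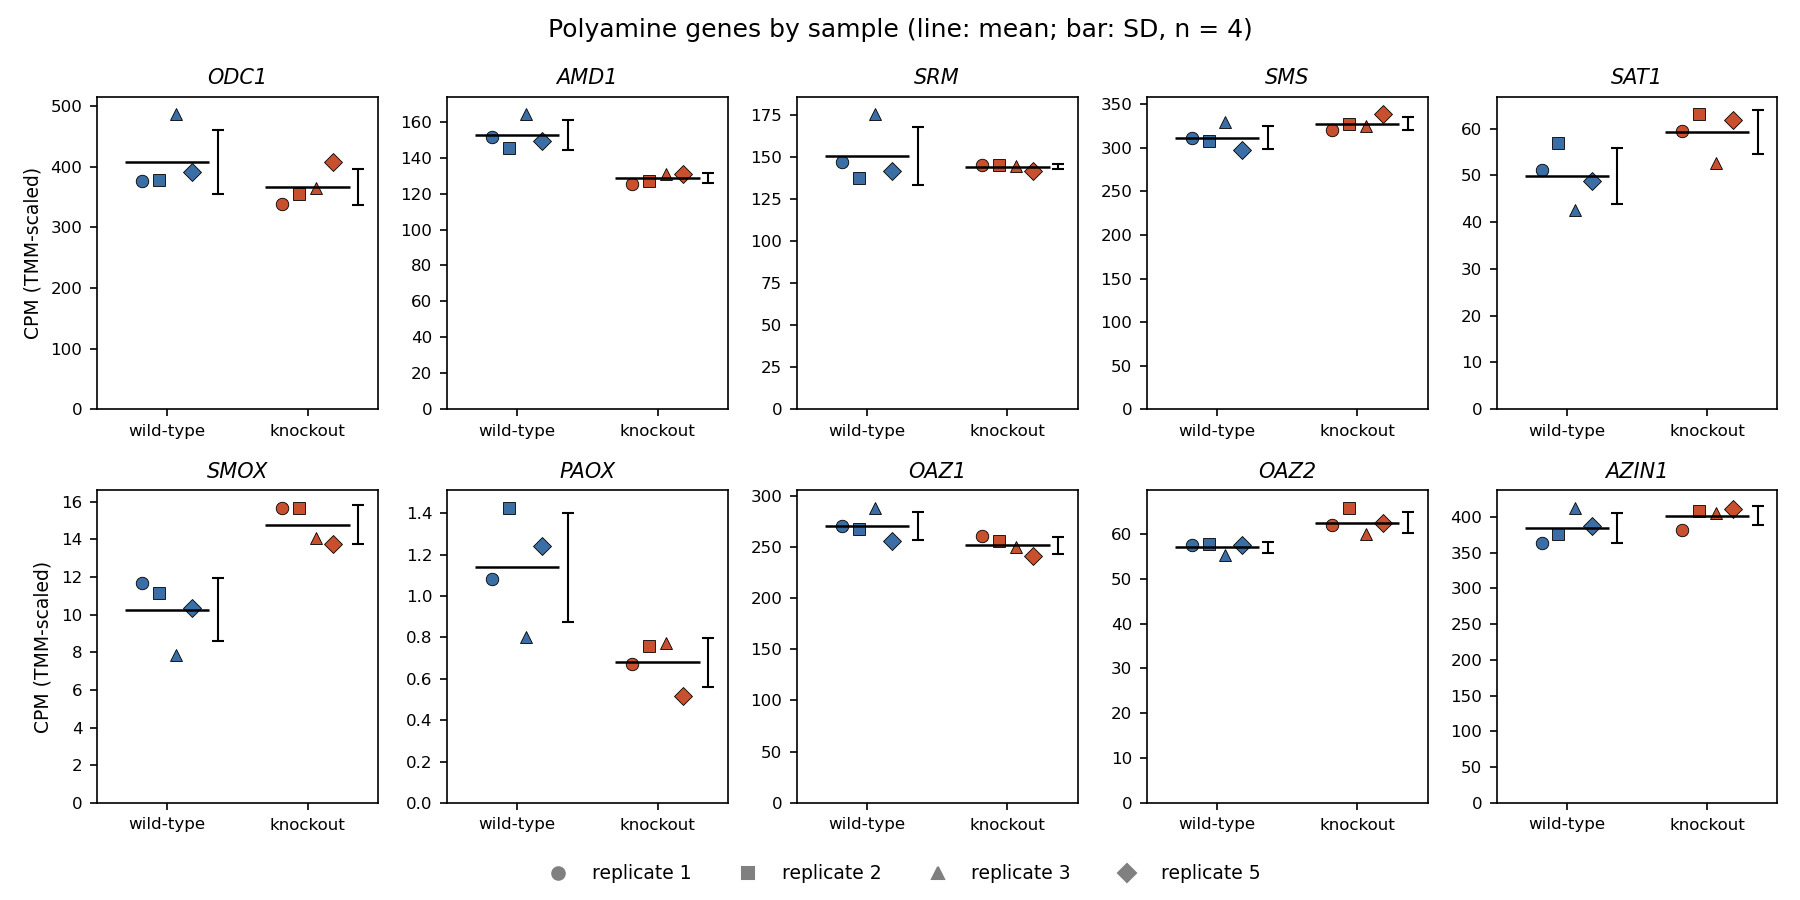
CPM (TMM-scaled) of the 10 polyamine genes in each of 4 wild-type (blue) and 4 knockout (red) samples, with marker shapes for replicate numbers, lines for group means and bars for SDs. The groups are apart for AMD1, SMOX, PAOX and OAZ2 and overlap for the other 6, and wild-type replicate 3 is the highest wild-type sample for ODC1, AMD1, SRM, SMS, OAZ1 and AZIN1.

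Across the 10 genes, 3 were called higher and 2 lower in knockout samples at an adjusted p below 0.05. The background was high: of 19877 tested genes 9458 were called (47.6%), with 23.9% of tested genes higher and 23.6% lower, so 5 called members of 10 (50%) is near the share over all genes. The median log2 change was 0.00 over the members and 0.00 over all tested genes, and the median size of change regardless of direction was 0.14 and 0.24. In 4 members (40%) the CPM of the groups did not overlap, against 43.4% of all tested genes. In bulk RNA, a small change in every cell and a larger one in some cells cannot be told apart.

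Among the synthesis genes, AMD1 fell and ODC1, SRM and SMS did not pass the test. AMD1 (ENSG00000123505, chromosome 6, 110874770 to 110895713, + strand), the S-adenosylmethionine decarboxylase, was at 152, 145, 164 and 149 CPM in wild-type replicates 1, 2, 3 and 5 and at 125, 127, 131 and 131 CPM in knockout samples. Every knockout sample was below every wild-type sample. The group means were 153 ± 8.23 and 129 ± 2.78 CPM (SD, n = 4), a log2 change of -0.25 (SE 0.05, 95% interval -0.34 to -0.15, adjusted p = 0.000170), or 0.844-fold. The call held in 17 of 17 alternatives, with log2 changes from -0.27 to -0.18. AMD1P3, a processed copy of AMD1 on chromosome 5, had 41 counts over the wild-type and 22 over the knockout samples, against 26851 and 25081 counts of AMD1.

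ODC1 (ENSG00000115758, chromosome 2, 10439968 to 10448504, - strand), the ornithine decarboxylase, was at 376, 378, 486 and 391 CPM in wild-type replicates 1, 2, 3 and 5 and at 338, 354, 364 and 408 CPM in the knockout. Wild-type replicate 3 stood far above the others of its group, and knockout replicate 5 lay above 3 of the 4 wild-type samples. The means were 408 ± 52.8 and 366 ± 30.0 CPM, with a log2 change of -0.16 (SE 0.08, 95% interval -0.34 to 0.02, adjusted p = 0.145). Replicate numbers tracked together across genes, and with the replicate number as a block the log2 change of ODC1 was -0.15 with an adjusted p of 0.0489. Within same-numbered pairs the log2 difference was -0.15, -0.09, -0.42 and 0.06 for replicates 1, 2, 3 and 5, so the sign was not the same in all pairs. Without knockout replicate 5 the change was -0.21 (adjusted p = 0.0395), whereas without wild-type replicate 3 it shrank to -0.06 (adjusted p = 0.405), so its size depended on single libraries. Its side of the threshold also depended on the fit. With every library kept, ODC1 passed with no filter on low counts (-0.17, adjusted p = 0.00327). It also passed relative to its chromosomal neighbours, described below (-0.29, adjusted p = 0.0122). Over 17 alternatives its adjusted p ran from 0.00327 to 0.405.

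SRM (ENSG00000116649, chromosome 1, 11054584 to 11060024, - strand), spermidine synthase, was at 147, 137, 175 and 142 CPM in wild-type and 145, 145, 144 and 142 CPM in knockout samples. The knockout values lay inside the wild-type range, and the log2 change was -0.06 (95% interval -0.19 to 0.07, adjusted p = 0.433). It turned to 0.02 without wild-type replicate 3, the highest sample, and to 0.00 with library totals alone as the scaling. SMS (ENSG00000102172, chromosome X, 21940573 to 21994835, + strand), spermine synthase, was at 311, 308, 329.7 and 297 CPM in wild-type and 320.2, 327, 325 and 339 CPM in knockout samples. Wild-type replicate 3 was above 3 of the knockout samples, and the log2 change was 0.07 (95% interval -0.02 to 0.17, adjusted p = 0.206).

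The breakdown genes did not move as one: SMOX and SAT1 rose and PAOX fell. SMOX (ENSG00000088826, chromosome 20, 4120980 to 4187747, + strand), spermine oxidase, was at 11.7, 11.1, 7.88 and 10.4 CPM in wild-type replicates 1, 2, 3 and 5 and at 15.7, 15.7, 14.1 and 13.7 CPM in the knockout. All knockout samples were above all wild-type samples. Means were 10.3 ± 1.68 and 14.8 ± 1.03 CPM, a log2 change of 0.53 (SE 0.10, 95% interval 0.32 to 0.74, adjusted p = 0.000220), or 1.44-fold. Of the 3 genes that rose, SMOX changed most, and its call held in 17 of 17 alternatives (0.42 to 0.59).

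SAT1 (ENSG00000130066, chromosome X, 23783173 to 23786226, + strand), the spermidine and spermine acetyltransferase, was at 51.2, 56.9, 42.5 and 48.9 CPM in wild-type and at 59.5, 63.1, 52.6 and 61.9 CPM in knockout samples. Knockout replicate 3 fell below wild-type replicate 2, so the groups overlapped, although the knockout sample was higher in 4 of 4 same-numbered pairs. The means were 49.9 ± 5.94 and 59.3 ± 4.68 CPM and the log2 change was 0.25 (SE 0.08, 95% interval 0.08 to 0.42, adjusted p = 0.0183). SAT1 no longer passed once wild-type replicate 5 was left out (adjusted p = 0.0513), or knockout replicate 1 (0.0545), 2 (0.0540) or 5 (0.0519), while the change stayed between 0.22 and 0.25 in those fits. Over all its alternatives the adjusted p of SAT1 ran from 2.5e-05 to 0.0936.

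PAOX (ENSG00000148832, chromosome 10, 133379234 to 133391694, + strand), the oxidase of acetylated polyamines, was the least abundant member, at 1.08, 1.43, 0.803 and 1.24 CPM in wild-type and 0.673, 0.757, 0.773 and 0.515 CPM in knockout samples. The groups did not overlap, but they nearly met in replicate 3, where the libraries held 38 and 37 counts. Over each group there were 198 and 132 counts, and the log2 change was -0.74 (SE 0.22, 95% interval -1.19 to -0.29, adjusted p = 0.00781), or 0.599-fold. It was the largest change of the 10 and the least precise. An unnamed protein-coding gene on the same strand (ENSG00000254536) overlaps PAOX in the annotation and had 449 and 447 counts, so assignment of reads between them is uncertain.

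Of the regulators, OAZ2 rose and OAZ1 and AZIN1 did not pass the test. OAZ2 (ENSG00000180304, chromosome 15, 64687573 to 64703281, - strand), an antizyme, was at 57.6, 57.8, 55.3 and 57.5 CPM in wild-type and at 62.0, 65.8, 59.9 and 62.5 CPM in knockout samples. Every knockout sample was above every wild-type sample, by little: 57.0 ± 1.17 against 62.6 ± 2.44 CPM, a log2 change of 0.13 (SE 0.05, 95% interval 0.04 to 0.23, adjusted p = 0.0210), or 1.10-fold. OAZ2 did not pass once knockout replicate 2 was left out (0.11, adjusted p = 0.0946) or with no filter on low counts (0.12, adjusted p = 0.0749), within a range of adjusted p from 0.00115 to 0.0984 over 17 alternatives.

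OAZ1 (ENSG00000104904, chromosome 19, 2269509 to 2273490, + strand), the more abundant antizyme, was at 271, 267, 288 and 256 CPM in wild-type and 260.5, 255, 249 and 241 CPM in knockout samples. The groups overlapped only in that knockout replicate 1 was above wild-type replicate 5, and the log2 change was -0.10 (SE 0.05, 95% interval -0.20 to -0.01, adjusted p = 0.0776). It was negative in 4 of 4 same-numbered pairs, and with the replicate number as a block it passed (-0.10, adjusted p = 0.0345), as it did without wild-type replicate 5 (-0.13, adjusted p = 0.0361). Over all alternatives its adjusted p ran from 0.0345 to 0.639. AZIN1 (ENSG00000155096, chromosome 8, 102826357 to 102893864, - strand), the antizyme inhibitor, was at 363, 375, 413 and 387 CPM in wild-type and 382, 408, 406 and 411 CPM in knockout samples. The knockout range lay inside the wild-type range, with a log2 change of 0.06 (95% interval -0.04 to 0.17, adjusted p = 0.316). SMS and AZIN1 both passed without wild-type replicate 3 (0.11, adjusted p = 0.0277, and 0.10, adjusted p = 0.0415), and over 17 alternatives their adjusted p ran from 0.00623 to 0.503 and from 0.0172 to 0.868.

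**Figure D2:**
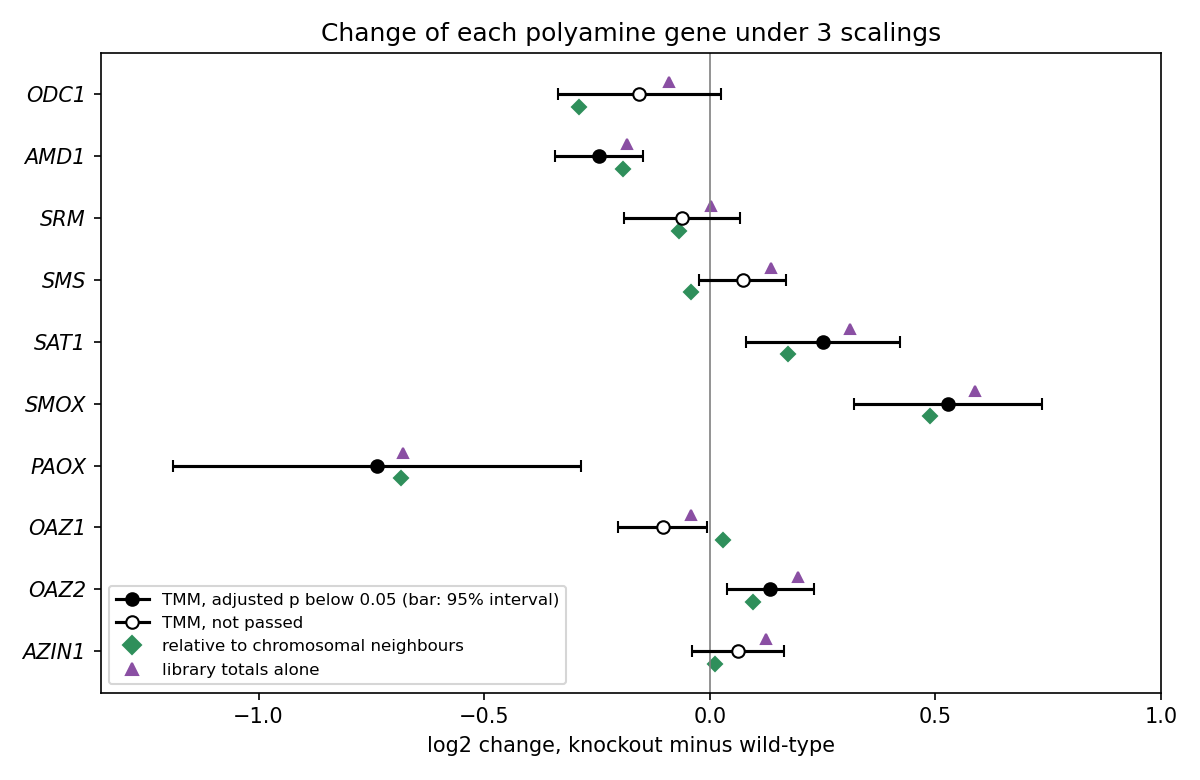
Log2 change (knockout minus wild-type) of each polyamine gene with TMM scaling (circles, filled where the adjusted p is below 0.05, bars for 95% intervals), relative to chromosomal neighbours (diamonds) and with library totals alone (triangles). AMD1 and PAOX stay to the left of 0 and SMOX, SAT1 and OAZ2 to the right under all 3 scalings, whereas SRM, SMS and OAZ1 cross it under at least 1.

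Ratios of counts between members within a sample do not depend on the scaling of libraries, and 7 were computed as a description, with no test. The ratio of OAZ2 to OAZ1, the antizymes, was 0.213, 0.217, 0.192 and 0.225 in wild-type replicates 1, 2, 3 and 5 and 0.238, 0.258, 0.240 and 0.260 in knockout samples. That of PAOX to SMOX, the oxidases, was 0.0929, 0.128, 0.102 and 0.120 in wild-type and 0.0430, 0.0484, 0.0550 and 0.0375 in knockout samples. Groups were apart for both ratios, with log2 differences of 0.24 and -1.27. The enzyme to its main antizyme, ODC1 to OAZ1, was 1.51 ± 0.137 in wild-type and 1.46 ± 0.170 in knockout samples, and the groups overlapped. AZIN1 to OAZ1 was 1.42 ± 0.0709 and 1.5997 ± 0.101, SMS to SRM 2.09 ± 0.152 and 2.28 ± 0.0769, AMD1 to ODC1 0.377 ± 0.0276 and 0.353 ± 0.0217, and SAT1 to ODC1 0.125 ± 0.0270 and 0.163 ± 0.0171. These 4 ratios also overlapped between the groups, although AZIN1 to OAZ1, SMS to SRM and SAT1 to ODC1 were higher in the knockout sample of 4 of 4 same-numbered pairs. Wild-type replicate 3 moved several of the log2 differences: without it SAT1 to ODC1 went from 0.40 to 0.24, SMS to SRM from 0.13 to 0.08 and AMD1 to ODC1 from -0.09 to -0.14, and ODC1 to OAZ1 turned from -0.05 to 0.01.

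**Figure D3:**
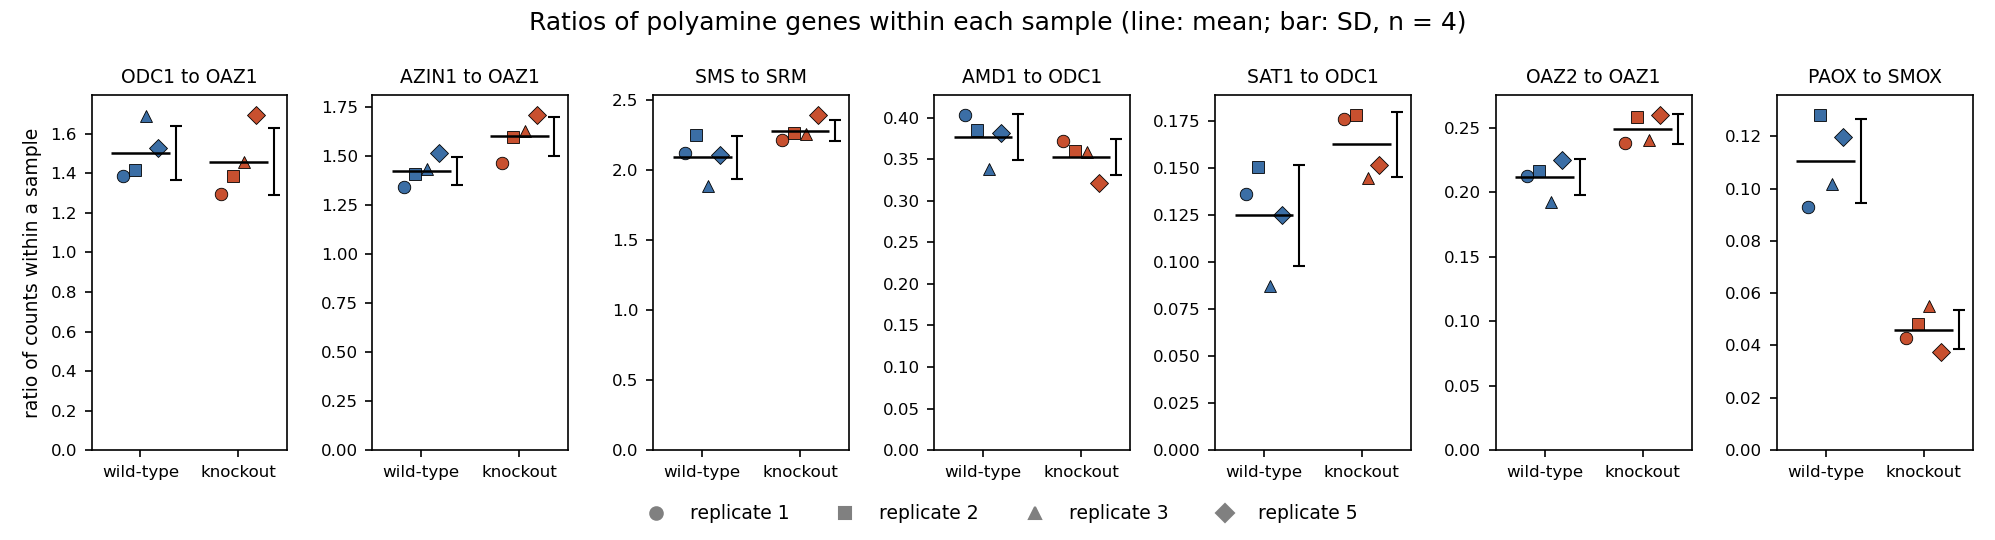
Ratio of counts of 1 polyamine gene to another within each sample, for 4 wild-type (blue) and 4 knockout (red) samples, with lines for means and bars for SDs. The groups are apart for OAZ2 to OAZ1 and for PAOX to SMOX and overlap in the other 5 panels.

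Each member was also set against the median log2 change of the 20 tested genes on each side (23 genes in all for PAOX, near a chromosome end). On that scale 1 member was called higher (SMOX, 0.49, adjusted p = 0.000552) and 3 lower: AMD1 (-0.19, adjusted p = 0.00200), PAOX (-0.68, adjusted p = 0.0139) and ODC1 (-0.29, adjusted p = 0.0122). Of all 19604 genes tested this way, 8785 were called (44.8%). SAT1 (0.17, adjusted p = 0.0936) and OAZ2 (0.10, adjusted p = 0.0984) no longer passed. The neighbour median entered the fit as a fixed value, so these p-values carry none of its own error.

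ODC1 and OAZ1 differed most between the scales. The 40 neighbours of ODC1 had a median log2 change of 0.13, with 16 called higher and 3 lower. Their changes were positive in 25 and negative in 15, and they spanned positions 8678845 to 17657018 of chromosome 2. One of them, ODC1-DT, a non-coding transcript that starts 189 bases from ODC1 on the opposite strand without overlapping it, was singled out after its values were seen. It was at 1.57 ± 0.139 CPM in wild-type and 2.81 ± 0.502 CPM in knockout samples, the groups did not overlap, and its log2 change was 0.83 (95% interval 0.52 to 1.15, adjusted p = 0.000111). The 40 neighbours of OAZ1 had a median of -0.13, with 2 called higher and 15 lower, and relative to them OAZ1 changed by 0.03 (adjusted p = 0.639). The edited gene is itself among those neighbours: OAZ1 begins 36930 bases after the end of DOT1L, with 5 annotated genes between, 2 of them protein-coding. Whether the neighbourhood has a part in the change of either gene was not tested.

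**Figure D4:**
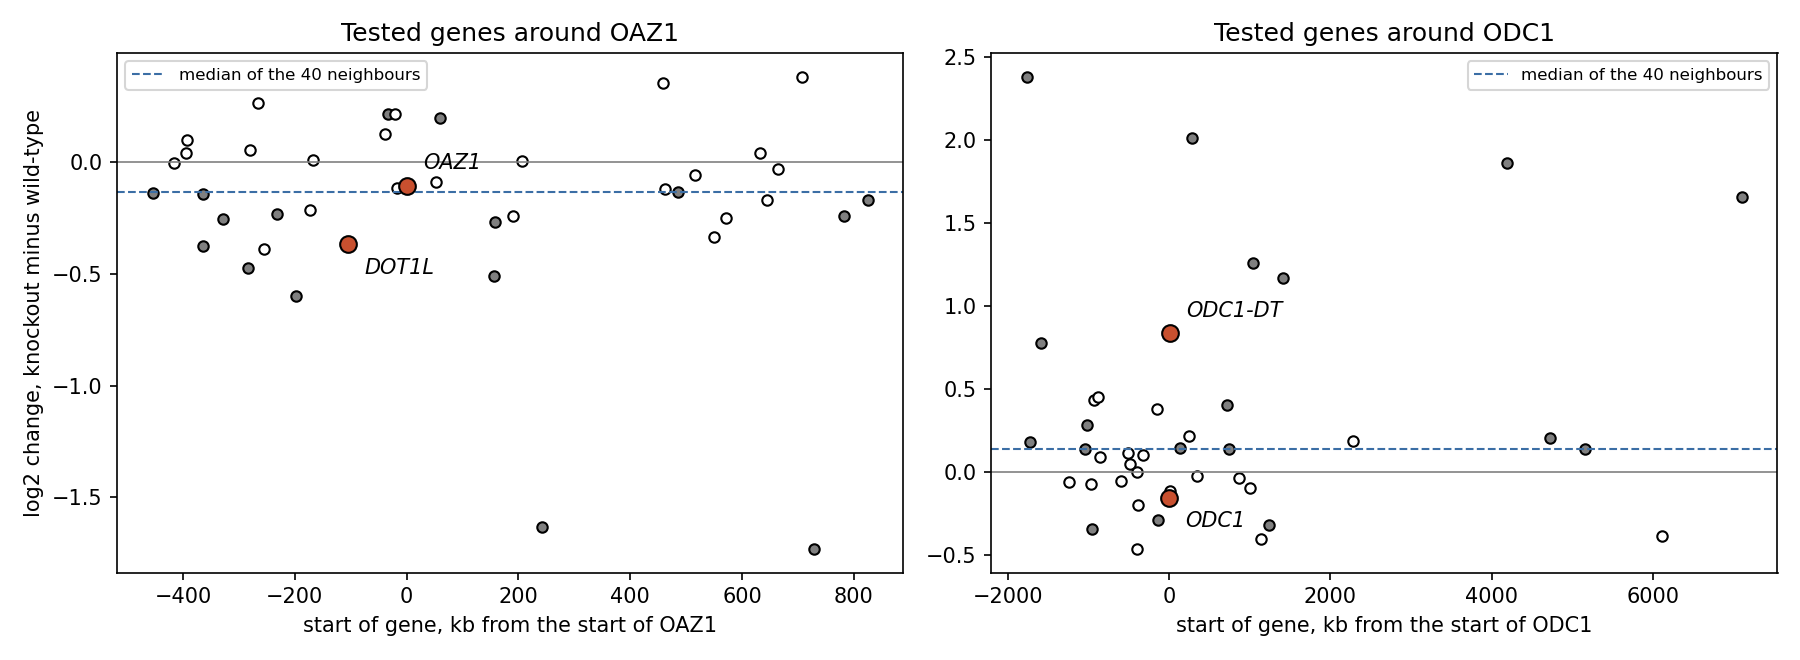
Log2 change (knockout minus wild-type) of tested genes around OAZ1 (left) and ODC1 (right) by distance between gene starts in kb. OAZ1, DOT1L, ODC1 and ODC1-DT are red whatever their p-value, and OAZ1 and ODC1 did not pass (adjusted p = 0.0776 and 0.145). Other points are filled grey where the adjusted p is below 0.05, and a dashed line marks the median of the 40 neighbours. The median lies at -0.13 around OAZ1 and 0.13 around ODC1, and ODC1 lies below its line while ODC1-DT lies above it.

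The reactions that feed polyamine synthesis, and those that use or move polyamines, were covered by 39 further genes in 6 lists, of which 35 were tested, 5 were called higher and 16 lower and 14 did not pass. Of all tested genes 47.6% were called, 23.9% higher and 23.6% lower, the background for each list here. Their median log2 change was -0.08, against 0.00 over all tested genes, and 20 of 35 did not overlap between the groups, against 43.4% of all tested genes. Supply of ornithine and arginine held 6 of the 16 lower calls, more than any other list, with 6 of 10 tested genes lower and 1 higher. It was also the list with the most tested genes, and the lists were chosen with earlier results of these data known. ARG2, the mitochondrial arginase that makes ornithine, is outside the naming rule and was added after its values were seen. It was at 23.6 ± 2.94 CPM in wild-type and 11.9 ± 1.66 CPM in knockout samples (log2 change -0.98, adjusted p = 7.97e-07). SLC25A15, the mitochondrial ornithine carrier, fell from 28.6 ± 2.08 to 18.5 ± 0.464 CPM (-0.62, adjusted p = 2.88e-08), and PYCR1, a proline synthesis enzyme, from 115 ± 10.8 to 69.7 ± 3.69 CPM (-0.72, adjusted p = 5.20e-09). ASS1, argininosuccinate synthase, rose from 10.3 ± 0.860 to 17.4 ± 1.19 CPM (0.75, adjusted p = 4.91e-08). AGMAT, named for hydrolysis of agmatine to putrescine, had 553 counts over the wild-type and 4 over the knockout samples, a ratio of library-scaled values of 153 (95% counting interval 59.6 to 565), the largest change of the 35. ARG1, the other arginase, had 0 counts in all 8 libraries.

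Methylthioadenosine, released whenever SRM or SMS adds an aminopropyl group, is recycled to methionine by a salvage pathway in which 3 of 4 tested genes were lower and 0 higher (23.6% and 23.9% of all tested genes). ENOPH1 fell from 84.6 ± 6.20 to 43.0 ± 2.11 CPM (-0.98, adjusted p = 5.85e-12), APIP from 38.5 ± 0.881 to 25.8 ± 1.11 CPM (-0.58, adjusted p = 8.35e-09) and ADI1 from 84.6 ± 2.03 to 71.4 ± 2.19 CPM (-0.25, adjusted p = 9.24e-05). Relative to their neighbours the changes of ENOPH1 and APIP were smaller, -0.22 (adjusted p = 0.00213) and -0.16 (adjusted p = 0.0184), and that of ADI1 was larger, -0.76. MTAP, the first enzyme of the pathway, had 0 counts in all 8 libraries, and 3 counts would have been 0.0594 to 0.0751 CPM. In the methionine cycle, which makes the S-adenosylmethionine that AMD1 uses, 2 of 6 tested genes were lower and 0 higher: MTRR fell from 87.4 ± 6.80 to 56.0 ± 1.46 CPM (-0.64, adjusted p = 2.08e-09; relative to neighbours, whose median was -0.46, -0.18, adjusted p = 0.00751) and MTR, methionine synthase, from 105 ± 3.40 to 91.0 ± 3.17 CPM (-0.21, adjusted p = 0.000630).

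Of 8 polyamine transport genes, 3 were higher and 3 lower, against 23.9% and 23.6% of all tested genes. SLC12A8 rose from 1.15 ± 0.190 to 3.10 ± 0.492 CPM (1.43, adjusted p = 2.14e-07) and ATP13A2, the lysosomal polyamine exporter, from 119 ± 7.49 to 150.3 ± 3.01 CPM (0.33, adjusted p = 6.59e-06). GPC1, a heparan sulfate proteoglycan linked to uptake, fell from 40.4 ± 2.63 to 26.1 ± 2.72 CPM (-0.63, adjusted p = 1.90e-07), and SLC3A2, a transporter heavy chain, from 279 ± 43.4 to 172 ± 7.97 CPM (-0.70, adjusted p = 0.000104; relative to neighbours -0.22, adjusted p = 0.0785). Hypusination, which attaches part of spermidine to EIF5A, had 1 higher and 1 lower of 4: EIF5A, the translation factor itself, fell from 1116 ± 57.9 to 989.7 ± 13.99 CPM (-0.17, adjusted p = 0.00620; with upper-quartile scaling -0.11, adjusted p = 0.0519), and EIF5A2 rose from 49.6 ± 5.18 to 66.5 ± 3.74 CPM (0.42, adjusted p = 2.12e-05). Of 3 tested paralogs of the members, AZIN2, the other antizyme inhibitor, fell from 6.76 ± 0.962 to 5.03 ± 0.824 CPM with overlapping groups (-0.42, adjusted p = 0.00802). SATL1 had 0 counts in all 8 libraries, and MAT1A, the liver form of methionine adenosyltransferase, did not pass the filter on low counts, with 9 counts over the wild-type and 50 over the knockout samples (0.0518 ± 0.0231 and 0.257 ± 0.0587 CPM) and groups that did not overlap.

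**Figure D5:**
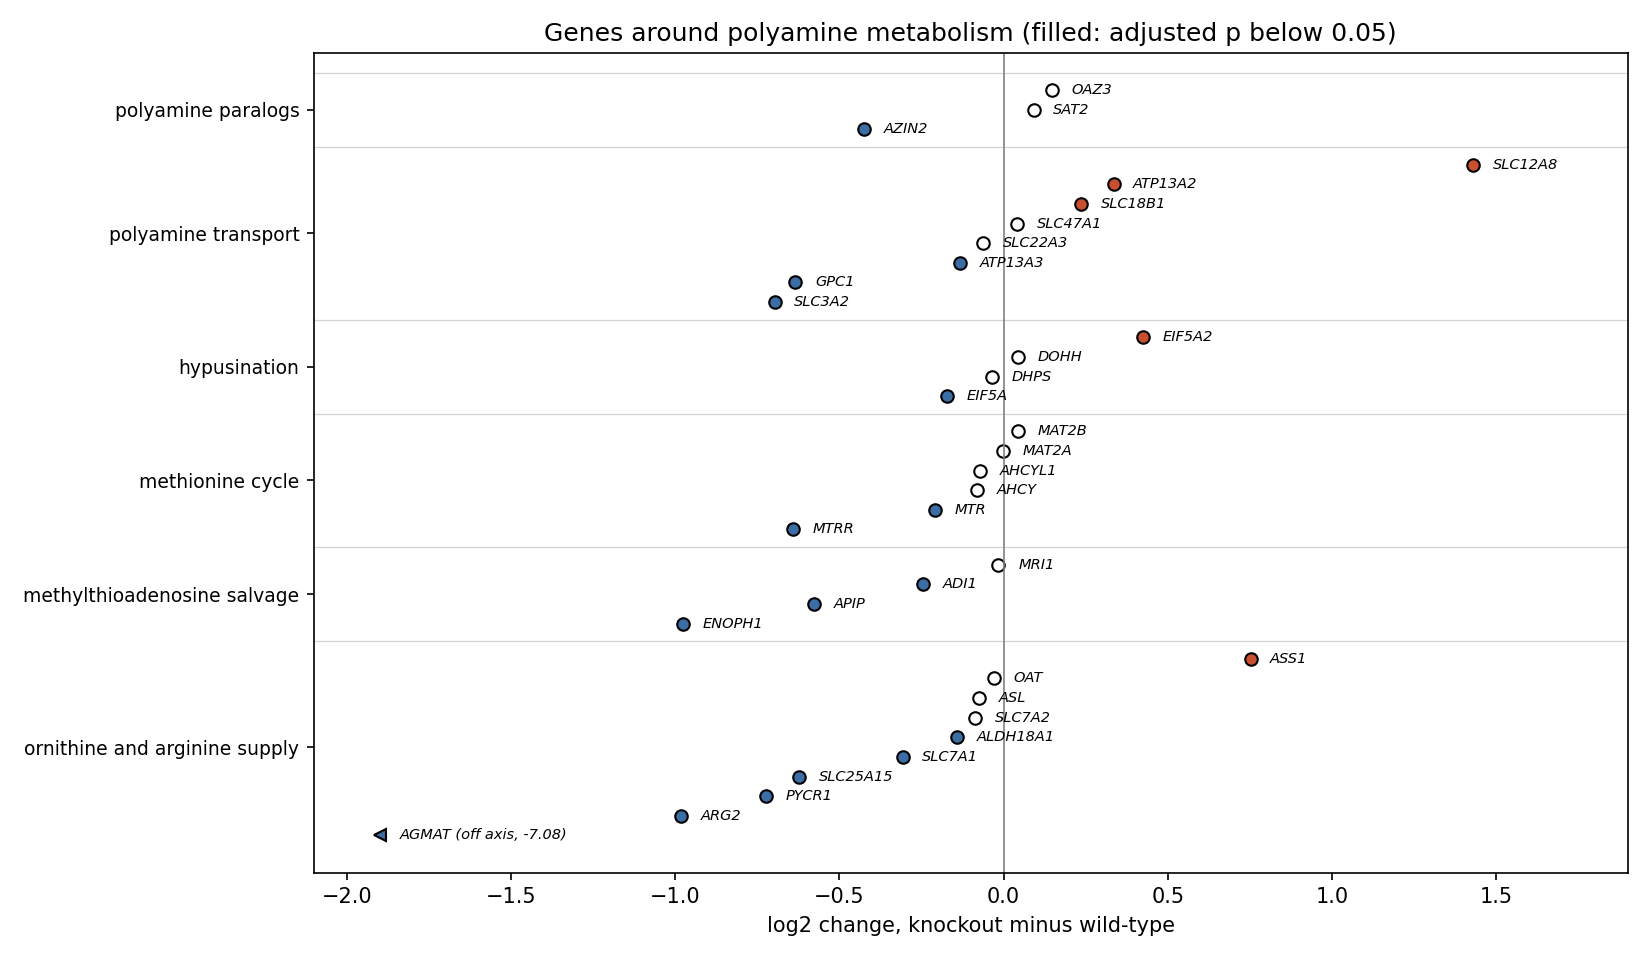
Log2 change (knockout minus wild-type) of the 35 tested genes in the 6 lists around polyamine metabolism, with filled points for adjusted p below 0.05 (red higher, blue lower in knockout samples). Most filled points in ornithine and arginine supply and in methylthioadenosine salvage lie to the left of 0, and AGMAT is drawn at the edge because its fitted change lies off the axis.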

How the data were processed

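Stranded libraries of rRNA-depleted RNA from 8 samples were sequenced on an Illumina NextSeq instrument, per the labels' protocols. The deposited table gives whole-number read counts per Ensembl gene; the submitters' processing notes list hg38, DESeq2 1.23.10, FastQC 0.11.7, STAR 2.6.0c, and featureCounts with Subread 1.6.2. The authors also deposited log2-scale variance-stabilized values (floor 5.59 for 0 counts), used only as an alternative. The sources used here do not give the annotation release, strand setting or handling of multi-mapped reads. Reads of overlapping or near-identical genes may be split or shared.

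Of 60646 rows, 60333 had a symbol and 58459 matched GENCODE 29, which gave coordinates and exon lengths. Counts were fitted across all genes in R 4.3.3 with edgeR 4.0.16 (filterByExpr, TMM scaling, robust quasi-likelihood test, group as the single term, Benjamini-Hochberg adjusted p below 0.05). SEs are the log2 change divided by the root of F. For the neighbour-relative values the median change of 20 tested genes on each side entered as a fixed offset, without its own error. Counts for 19877 genes were also simulated in a single draw without replicate pairing. In it 200 genes above a CPM floor were changed, 50 at each fold. The fit recovered 64% of genes changed 1.25-fold, 82% at 1.5-fold, 94% at 2-fold and 100% at 4-fold, and 7.61% of 184 calls were false. In the data a far larger share of genes was called (47.6%), so these rates do not carry over to the calls reported here.

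Groups and replicate numbers (1, 2, 3 and 5) came from the labels. Deviations from group means correlated at 0.376, 0.154, 0.153 and 0.391 between same-numbered samples over 13212 genes and at -0.301 to 0.0596 between others, so the numbers were taken to pair samples, a pairing drawn from the data. The main fit left this pairing out, and the replicate block used it as an alternative. No replicates were alike within sampling noise (chi-square per degree of freedom 3.41 to 18.4). Alternatives were upper-quartile, library-total and RLE scaling, DESeq2 1.42.0, limma 3.58.1 on the variance-stabilized values, other filters, the replicate block, neighbours, and each sample left out. The members and the related lists were chosen with earlier results of these data known. Named were all members and DOT1L, up to 4 called genes of each related list by adjusted p, list genes without a test, and copies and antisense genes of members. ARG2 and ODC1-DT were singled out after their values were seen. Intervals from counts cover counting error only.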

Additional observations from a re-analysis of the deposited data

Results flagged for a closer look

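In each group of 4 samples, the highest and lowest sample was compared with the gap to the next, and 4 of 72 groups of values had a sample standing apart beyond Dixon's 95% critical value; chance alone gives about 1 in 20. ODC1 in wild-type replicate 3 was at 486 CPM, against 376 to 391 CPM in the other 3. OAZ2 in the same library was low, at 55.3 CPM against 57.5 to 57.8 CPM, and ENOPH1 in that library was high, at 93.8 CPM against 80.3 to 82.3 CPM. SLC12A8 in knockout replicate 2 was at 3.83 CPM, against 2.76 to 2.91 CPM in the other knockout samples. Without wild-type replicate 3, 5 members were called higher and 2 lower. In that fit 9606 of all 20304 tested genes were called, 4959 higher and 4647 lower.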

How the results depend on the processing

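Over 169 alternatives for the log2 changes of single members, 143 kept the direction and the side of the threshold, 8 lost the call, 13 gained it and 5 turned in sign. Over 288 for the named related genes, 286 kept both and 2 lost the call (EIF5A with upper-quartile scaling, SLC3A2 relative to neighbours). The count of members called higher, 3, became 5 with upper-quartile scaling and 5 with library totals alone (SMS and AZIN1 gained), and 1 relative to neighbours. It was 2 with no filter on low counts, and 4 of 9 tested when a gene needed a mean log2 CPM of 1. It ranged from 1 to 5 with each sample left out, at 1 without knockout replicate 2 and 5 without wild-type replicate 3. Over all tested genes, 4759 of 19877 were called higher in the main fit. That became 6021 with upper-quartile scaling, 5898 with library totals alone and 4363 of 19604 relative to neighbours. With no filter it was 5380 of 37527, and with the mean log2 CPM filter 3747 of 13343. The same count was 4279 of 20206 without knockout replicate 2 and 4959 of 20304 without wild-type replicate 3. The count of members called lower, 2, became 1 when a gene needed a mean log2 CPM of 1, which removed PAOX from the test, and 4 with the replicate block (ODC1 and OAZ1 gained). It was 3 with no filter, relative to neighbours, without wild-type replicate 5 and without knockout replicate 5. Over all tested genes, 4699 of 19877 were called lower in the main fit, 3762 of 13343 with the mean log2 CPM filter and 5186 of 19877 with the block. With no filter 5064 of 37527 were called lower, and relative to neighbours 4422 of 19604. Without wild-type replicate 5 the count was 4563 of 20276, and without knockout replicate 5 it was 4518 of 20137. The block changed no other member's call. Sign changes were all in members that did not pass: SRM was 0.0044 with upper-quartile scaling and 0.0026 with library totals, and -0.107 to 0.0250 with each sample left out, and relative to neighbours SMS was -0.0409 and OAZ1 0.0304. Of all called genes, 50.3% were higher, against 61.9% with upper-quartile scaling and 61.1% with library totals. PAOX was -0.31 on the variance-stabilized scale, which compresses low counts. Depth limits PAOX most, with 26 to 57 counts per library. Among the members only AMD1, PAOX and SMOX passed in every alternative in which they were tested.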
